A study of Mus musculus with 9 samples.

Results

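Prostate RNA of mice lacking Srd5a2 was compared with that of wild-type mice, in 6 of the 9 libraries of the series and across all genes of the count table. The 3 KO libraries carry Srd5a2 null alleles (Srd5a2-/-), and the 3 WT libraries carry none. The other 3 libraries, from heterozygous mice (Srd5a2+/-), entered the statistical model and are given beside a few results. Null males were bred through heterozygous males crossed with C57BL6 wild-type females, and genotypes were read from the library names. The sources used here do not give the part of the gene that the null allele lacks, the age of the mice or the lobes taken. The labels do not say whether each library is a separate animal, so a p-value measures only the spread among these samples, and that spread may be technical. RNA was polyA-enriched from whole tissue, so fewer cells of a type and less RNA per cell cannot be told apart.

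Srd5a2 encodes the type II steroid 5-alpha-reductase, which converts testosterone to dihydrotestosterone, the more potent ligand of the androgen receptor. In the prostate, androgen receptor signalling maintains the secretory luminal cells, which export large amounts of protein through the endoplasmic reticulum (ER) and release zinc and citrate into the fluid. Cells with a heavy secretory load rely on the unfolded protein response, in which the sensors PERK, IRE1 and ATF6 raise the production of chaperones and of the degradation machinery of the ER.

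The WT libraries held 19215332, 21137415 and 20077808 counts and the KO libraries 17783491, 16233392 and 19191974, each in the order of libraries 1 to 3, which is used for all values here. Levels are CPM, a count as a share of the scaled library size. Prostate markers were present in all 6 libraries: the secreted luminal protein Pbsn stood between 4420 and 13100 CPM, and the luminal keratin Krt8 between 441 and 515 CPM. Markers of neighbouring tissue were present too and differed between libraries. The 20 skeletal muscle markers summed to 357, 686 and 1490 CPM in WT and to 850, 7200 and 1260 in KO, and 1 of them, Tnnc2, was at 0 in all 6 libraries. The 11 seminal vesicle markers summed to 72200, 31200 and 222000 CPM in WT and to 99100, 96800 and 195000 in KO. Of these 11, 8 had positive log2 differences (median 1.87). All KO libraries were above all WT libraries for 4 of them, beside 8.14% of all tested genes. Their mean log2 CPM, centred over the 9 libraries, was -2.27, -0.11 and 2.58 in WT and 2.19, 2.58 and 3.29 in KO, so it leaned to KO. KO library 2 therefore stood apart for muscle genes, and WT library 3 carried more of both kinds of marker than the other WT libraries. Sbp, a spermine-binding protein secreted by the prostate, stood apart as well, with 34400 to 56200 CPM in KO, 55600 in WT library 2, but 0.994 in WT library 1 and 16.0 in WT library 3.

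Srd5a2 itself (chromosome 17, 74016955 to 74047916, GRCm38) separated the labels. It stood at 2.30, 5.50 and 8.81 CPM in WT and at 0.934, 0.512 and 1.15 in KO, from 44, 124 and 170 reads against 17, 9 and 22. The gene was low in the WT libraries as well, with a mean of 5.54 ± 3.26 CPM (SD, n = 3), and KO held 0.865 ± 0.325 (SD, n = 3). The log2 difference was -2.67 (SE 0.62, interval -4.06 to -1.28 at 95%), and DESeq2 gave an adjusted p of 0.0397. Every KO library was below every WT library, and transcripts from the locus were still counted in KO.

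No gene passed an adjusted p of 0.05 in edgeR's quasi-likelihood test with Benjamini-Hochberg adjustment over 16836 genes (0% called, lowest adjusted p 0.9996). In that test, at an unadjusted p under 0.05, 371 genes were higher in KO (2.2% of those tested) and 230 lower (1.37%). These 601 of 16836 genes are fewer than the share of 0.05 that this threshold would pass with no effect in any gene. DESeq2 called 14 of the 16478 genes to which it gave an adjusted p (0.085%), 11 higher and 3 lower in KO. The higher included Krt4, Wfdc2, Clca1, Fam240b, Gsdmc2, Aspa, Rapgef4, Ehd3, Synpo2l and Aldh3a1, and the lower were Herpud1, Ddit3 and Srd5a2. The edgeR fit of the 6 WT and KO libraries alone called 1 gene, Wfdc2, and limma voom called 0. The count at an unadjusted p under 0.05 rested in part on KO library 2, without which it was 138 higher and 108 lower. It was 711 and 361 without Het library 1, 648 and 136 without WT library 2, 282 and 82 without WT library 1, and 481 and 351 without Het library 2.

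**Figure D1:**
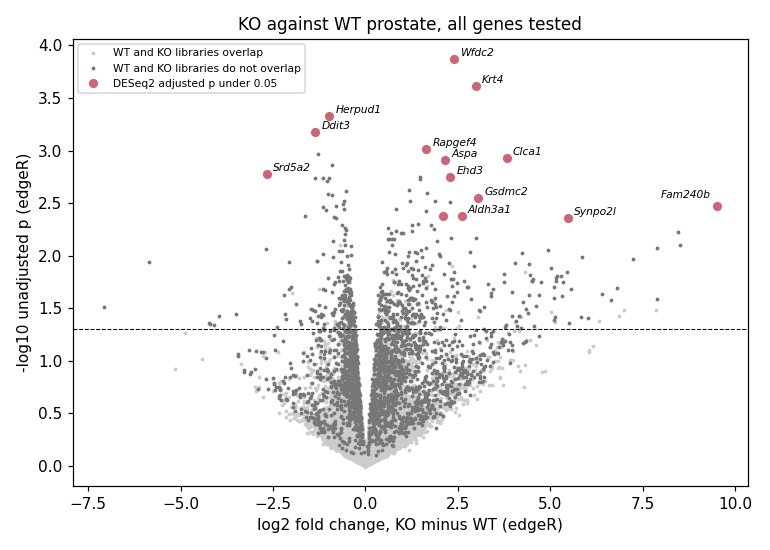
Each point is 1 of 16836 genes, with the edgeR log2 difference of KO minus WT on the horizontal axis and the -log10 of edgeR's unadjusted p on the vertical axis, and a dashed line at the unadjusted threshold. The large points are the 14 genes DESeq2 called, 11 on the right and 3 on the left, and dark points are genes whose WT and KO libraries do not overlap.

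**Figure D2:**
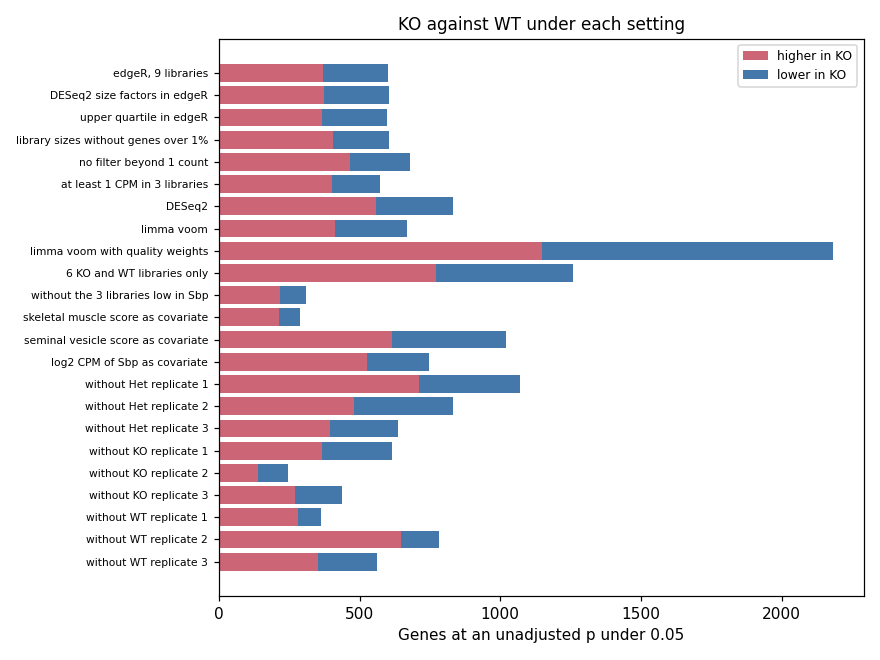
Bars count genes at an unadjusted p under 0.05, higher (red) and lower (blue) in KO, for edgeR on 9 libraries and under each other setting or with 1 library left out. The count is 371 and 230 in the first bar, 213 and 77 with the muscle covariate and 138 and 108 without KO library 2.

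Library by library, 1370 genes had every KO library above every WT library (8.14% of those tested) and 1017 had every KO library below (6.04%). With 3 libraries a side, a share of all genes would lie apart in this way with no effect of genotype. These counts alone therefore do not show a broad response. With 1 KO or WT library left out, so that fewer must be apart, these counts were 1932 to 3065 and 1495 to 2450. Among the 1370, 661 had a log2 difference over 1 and 273 over 2, with a median of 0.96. The 1017 lower genes moved less, with 208 beyond 1 and 56 beyond 2 on the log2 scale and a median of -0.45. The highest library of the first set was KO library 2 for 651 genes, against 354 for KO library 1 and 365 for KO library 3. Among the lower genes the lowest KO library was more evenly spread, at 313, 338 and 366. With a skeletal muscle covariate (the mean log2 CPM of the muscle markers), 97.5% of the higher and 96.2% of the lower genes kept their sign, and the medians became 0.76 and -0.37. These genes were picked from the same libraries for lack of overlap, so a kept sign says little about muscle content. Of the 601 genes at an unadjusted edgeR p under 0.05, 93 stayed under it with that covariate.

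Among the named genes that were higher in KO, several encode secreted or surface proteins of epithelium. Wfdc2 (chromosome 2, 164562413 to 164568510), a secreted protein with WAP-type protease inhibitor domains, stood at 6.75, 9.85 and 8.14 CPM in WT and at 41.7, 50.8 and 39.0 in KO. The KO mean was 5.32 times the WT mean, and the log2 difference was 2.41 (SE 0.40), with a DESeq2 adjusted p of 5.49e-05. The KO libraries lay close together, and leaving out any 1 of the 9 libraries kept the difference between 2.28 and 2.60. With the muscle covariate it was 2.05, and with the seminal vesicle covariate 1.85.

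Krt4 (chromosome 15, 101918535 to 101924735), a keratin of stratified epithelium and of proximal prostate ducts, showed 6.07, 13.3 and 13.3 CPM in WT and 70.5, 145 and 45.4 in KO. Its log2 difference was 2.99 (SE 0.51, DESeq2 adjusted p 6.86e-06), and KO library 2 was the highest. With the muscle covariate the difference was 2.33. On the FPKM scale, which takes gene length into account, the KO levels of Krt4 and Wfdc2 were 39.9 ± 24.2 and 37.6 ± 5.65 (SD, n = 3).

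Clca1, a secreted metalloprotease of mucous cells, stood at 0.314, 0.577 and 0.933 CPM in WT and 4.67, 15.8 and 5.60 in KO, a log2 difference of 3.82 (SE 0.85, DESeq2 adjusted p 0.00295). It was 3.06 without KO library 2 and 2.57 with the muscle covariate. Gsdmc2, of the pore-forming gasdermin family, was at 5.39, 4.70 and 7.10 CPM against 47.0, 71.3 and 24.7, a log2 difference of 3.06 (SE 0.73, DESeq2 adjusted p 0.00765). It was 2.14 with the muscle and 2.22 with the seminal vesicle covariate. Its near copies in the gasdermin C cluster could share reads with it, so the value is uncertain for the single gene. Aldh3a1, an aldehyde dehydrogenase of epithelia, was at 6.28, 4.53 and 1.81 CPM in WT and 21.4, 24.9 and 30.8 in KO (log2 difference 2.61, SE 0.68, DESeq2 adjusted p 0.0397, and 1.97 with the seminal vesicle covariate). For all 3 genes the lowest KO library exceeded the highest WT library.

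Among transport and processing proteins of the epithelial surface, Scnn1a, the alpha subunit of the epithelial sodium channel, had 7.27, 7.41 and 11.6 CPM in WT and 15.4, 26.5 and 18.6 in KO. Car12, a membrane carbonic anhydrase, had 1.62, 1.60 and 2.44 against 4.67, 5.52 and 10.7. Bace2, an aspartyl protease related to beta-secretase, had 8.68, 21.6 and 14.7 against 36.7, 50.6 and 37.6. Their log2 differences were 1.20 (SE 0.31), 1.88 (SE 0.48) and 1.47 (SE 0.35), and neither edgeR nor DESeq2 called them. With the muscle covariate, Scnn1a was at 0.57. Bace2 was at 0.95 without the 3 libraries low in Sbp (WT libraries 1 and 3 and Het library 2).

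Signalling, transport and nerve-related genes made up most of the others. Rapgef4, an exchange factor for Rap that is activated by cyclic AMP, was at 2.25, 3.46 and 3.21 CPM in WT and 7.25, 10.4 and 10.4 in KO, a log2 difference of 1.65 (SE 0.36, DESeq2 adjusted p 0.0232). Aspa, which splits N-acetylaspartate, was at 1.05, 1.95 and 0.881 against 5.05, 6.60 and 5.81 (2.16, SE 0.48, DESeq2 adjusted p 0.0154). Ehd3, a protein of endocytic recycling, was at 0.732, 1.46 and 0.622 against 2.75, 6.14 and 5.13 (2.30, SE 0.54, DESeq2 adjusted p 0.0325). These 3 genes kept log2 differences of 1.42, 2.27 and 2.29 with the muscle covariate, while Aspa and Ehd3 were at 1.57 and 1.67 without the 3 libraries low in Sbp (WT libraries 1 and 3 and Het library 2). Plxna4, a semaphorin receptor, Kif5a, a neuronal kinesin, and Plcd1, a phospholipase C, had log2 differences of 2.29 (SE 0.59), 1.67 (SE 0.42) and 1.18 (SE 0.29). The groups of all 3 were apart, and none was called by either tool. The nerve and Schwann cell markers moved with these genes: their sum was 113, 116 and 114 CPM in WT and 160, 235 and 193 in KO, 11 of 11 had positive log2 differences, and 6 had every KO library above every WT library, beside 8.14% of all tested genes. Their part in the result was not tested.

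Synpo2l and Fam240b, both called by DESeq2, were highest in KO library 2, the library richest in muscle RNA. Synpo2l, an actin-associated protein of striated muscle, had 0.105, 0.0888 and 0.259 CPM in WT and 2.09, 15.7 and 2.98 in KO (5.47, SE 1.48, DESeq2 adjusted p 0.0397), which was 2.68 with the muscle covariate and 4.02 without KO library 2. Fam240b was at 0 in every WT library and at 0.659, 11.4 and 2.04 CPM in KO (DESeq2 adjusted p 0.00511). Its KO mean was at least 95.3-fold higher than 3 counts over the WT group would give (0.0492 CPM), a bound for counting error only that leans on KO library 2.

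**Figure D3:**
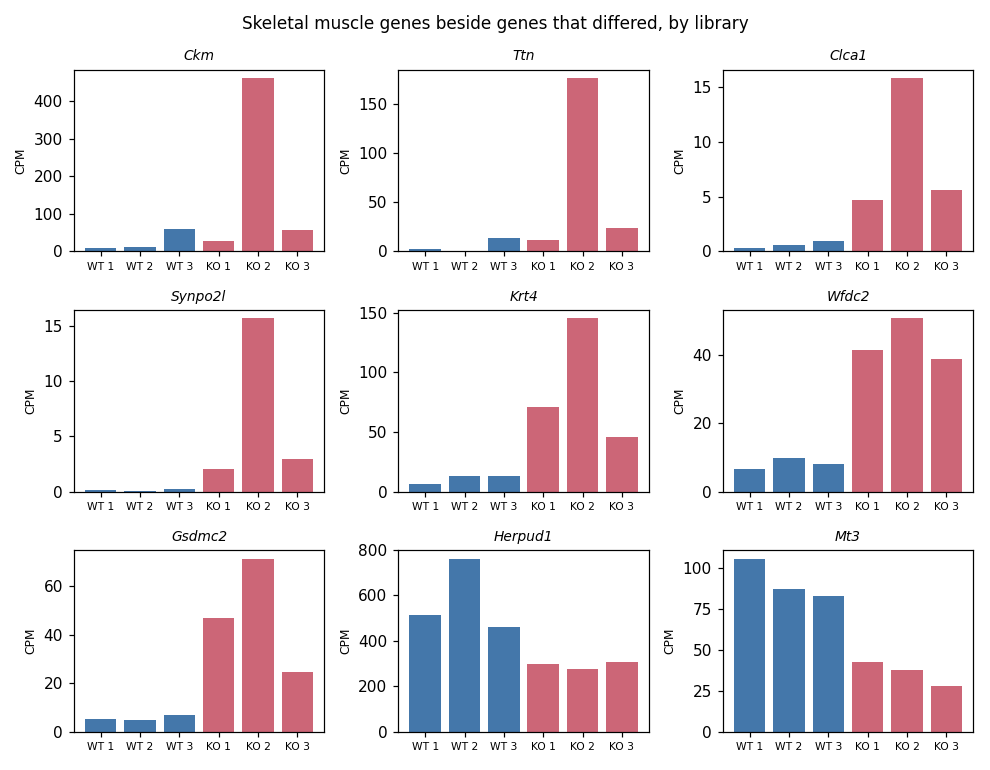
Bars give CPM in each WT (blue) and KO (red) library, on a linear axis from 0, for the muscle genes Ckm and Ttn and for 7 named genes. Ckm and Ttn are highest in KO library 2, as are Clca1, Synpo2l, Krt4, Wfdc2 and Gsdmc2, while Wfdc2 differs little among the KO libraries and Herpud1 and Mt3 are low in all 3.

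Lower in KO was a set of genes of ER quality control. Herpud1 (chromosome 8, 94386438 to 94395377), a membrane protein that assists ER-associated degradation, was at 514, 762 and 462 CPM in WT and at 298, 277 and 307 in KO. The KO mean was 0.507 times the WT mean, with a log2 difference of -0.98 (SE 0.19, interval -1.41 to -0.55 at 95%, DESeq2 adjusted p 0.0079). The KO libraries were nearly equal, and the WT spread came mainly from WT library 2. Without that library the difference was -0.69, and with the muscle covariate -0.65.

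Syvn1 (chromosome 19, 6046576 to 6053712), the ubiquitin ligase HRD1 with which Herpud1 acts, followed the same order of libraries in WT, with 4784, 9890 and 4631 reads, and had 2972, 2568 and 2852 in KO, or 310 ± 112 and 153 ± 9.14 CPM (SD, n = 3). Its log2 difference was -1.02 (SE 0.26), not called by DESeq2 (adjusted p 0.146), and -0.64 without WT library 2. Ddit3, the stress-induced transcription factor CHOP, was at 39.8, 56.9 and 28.5 CPM in WT and 20.3, 16.4 and 12.5 in KO (-1.35, SE 0.28, DESeq2 adjusted p 0.026). WT library 2 was the highest library for all 3 genes. Dnaja1, a cytosolic co-chaperone, was at 174, 153 and 140 CPM in WT and 96.7, 103 and 109 in KO, a log2 difference of -0.59 (SE 0.15) with no overlap and no call.

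Promoter sequences of Herpud1 and Syvn1 are shown because each holds a response element through which ER stress sensors are known to act. They are the 250 bases before the RefSeq start site (GRCm38.p6), chr8:94386179-94386428 and chr19:6046326-6046575, both on the plus strand, with the matches in capitals.

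Herpud1: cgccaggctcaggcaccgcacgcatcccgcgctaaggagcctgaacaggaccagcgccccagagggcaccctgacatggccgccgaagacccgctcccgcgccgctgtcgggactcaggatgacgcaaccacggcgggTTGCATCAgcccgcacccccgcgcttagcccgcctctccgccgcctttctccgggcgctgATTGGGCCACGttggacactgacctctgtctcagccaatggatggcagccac

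Syvn1: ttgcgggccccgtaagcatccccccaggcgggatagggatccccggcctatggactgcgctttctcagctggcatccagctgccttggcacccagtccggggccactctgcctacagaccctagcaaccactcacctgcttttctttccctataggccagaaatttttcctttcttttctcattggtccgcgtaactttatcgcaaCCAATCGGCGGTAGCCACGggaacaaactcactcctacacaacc

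In Herpud1 the capitals mark, from 5′ to 3′, a match on the minus strand to TGATGNAA, the element bound by C/EBP and ATF factors, starting 112 bases before the start site, and a match to the ER stress response element II (ATTGG and CCACG with 1 free base between), starting 52 bases before it. In Syvn1 they mark the ER stress response element (CCAAT and CCACG with 9 free bases between), starting 44 bases before the start site. Both strands of windows from 250 bases before to 50 after the start were searched, and 19 of the 32 named genes had such a window. Of 15197 windows of tested genes, 0.0592% held the ER stress response element II, 0.125% the ER stress response element and 2.33% the C/EBP and ATF element. TGACGTGG, the androgen element (AGAACA and TGTTCT with 3 free bases between), the heat shock element (GAA, TTC and GAA with 2 free bases between each) and the metal elements TGCACNC and TGCGCNC were searched too, and were in 0.842%, 0.00658%, 0.48% and, for the metal pair, 35% of windows. These 2 promoters were chosen after the matches were seen, and a match describes letters in a window, not binding.

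The lists of ER genes lay mostly on the lower side. In the IRE1 and XBP1 arm 23 of 23 tested genes had negative log2 differences, with a median of -0.21, beside 8324 of 16836 and a median of 0.01 over all tested genes. Its chaperone cofactor Dnajb9 was at 152, 145 and 125 CPM in WT and 73.2, 75.4 and 93.7 in KO (-0.80, SE 0.21). In the PERK and ATF4 arm 20 of 24 were negative (median -0.32), and Atf4, its central transcription factor, was at 412, 343 and 312 CPM against 288, 269 and 222 (-0.45, SE 0.17). Among ATF6 targets and chaperones 18 of 19 were negative (median -0.29), in ER-associated degradation 27 of 30 (-0.15), and in COPI and COPII vesicle transport 28 of 30 (-0.17). All KO libraries were below all WT libraries for 5 of 24 genes of the PERK arm, 5 of 23 of the IRE1 arm, 3 of 19 of the ATF6 list, 3 of 30 of the degradation list and 3 of 30 of the vesicle list. These shares were 20.8%, 21.7%, 15.8%, 10% and 10%, beside 6.04% of all tested genes, with the degradation and vesicle lists nearest to it. None of these genes passed the edgeR test, and several stand in more than 1 list.

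With the muscle score as a covariate the median of the PERK arm stayed at -0.34, while those of the IRE1 arm, the vesicle list, the degradation list and the ATF6 list moved to -0.06, -0.05, 0.02 and 0.10. The muscle score was 1.62, 5.57 and 2.68 in KO and -2.55, -2.46 and 2.25 in WT, so it was itself tied to genotype. Of the ATF6 list, the disulphide isomerase Pdia3 had -0.35 (SE 0.17) and -0.02 with the covariate, while the chaperone Hspa13 had -0.52 (SE 0.24) and -0.74. The aminoacyl-tRNA synthetases, several of which ATF4 is known to induce, were negative in 27 of 35 (median -0.14). Cars was at 114, 81.8 and 111 CPM in WT and 85.8, 68.1 and 58.4 in KO (-0.53, SE 0.21), whereas the mitochondrial enzyme Lars2 was higher, at 161, 147 and 127 against 256, 204 and 217 (0.64, SE 0.20).

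Other lists of protein production and turnover differed less. Cytosolic ribosomal proteins were negative in 54 of 76 with a median of -0.05, which turned to 0.15 with the muscle covariate, and proteasome subunits in 24 of 37 with a median of -0.03. All 12 mitochondrially encoded proteins were negative, with a median of -0.33. KO library 2 was the KO library nearest to WT: mt-Co3, a subunit of cytochrome oxidase, was at 39.3, 43.0 and 47.6 CPM in WT and 30.8, 36.1 and 34.2 in KO, and the list's median was -0.54 without KO library 2, the library rich in muscle RNA.

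**Figure D4:**
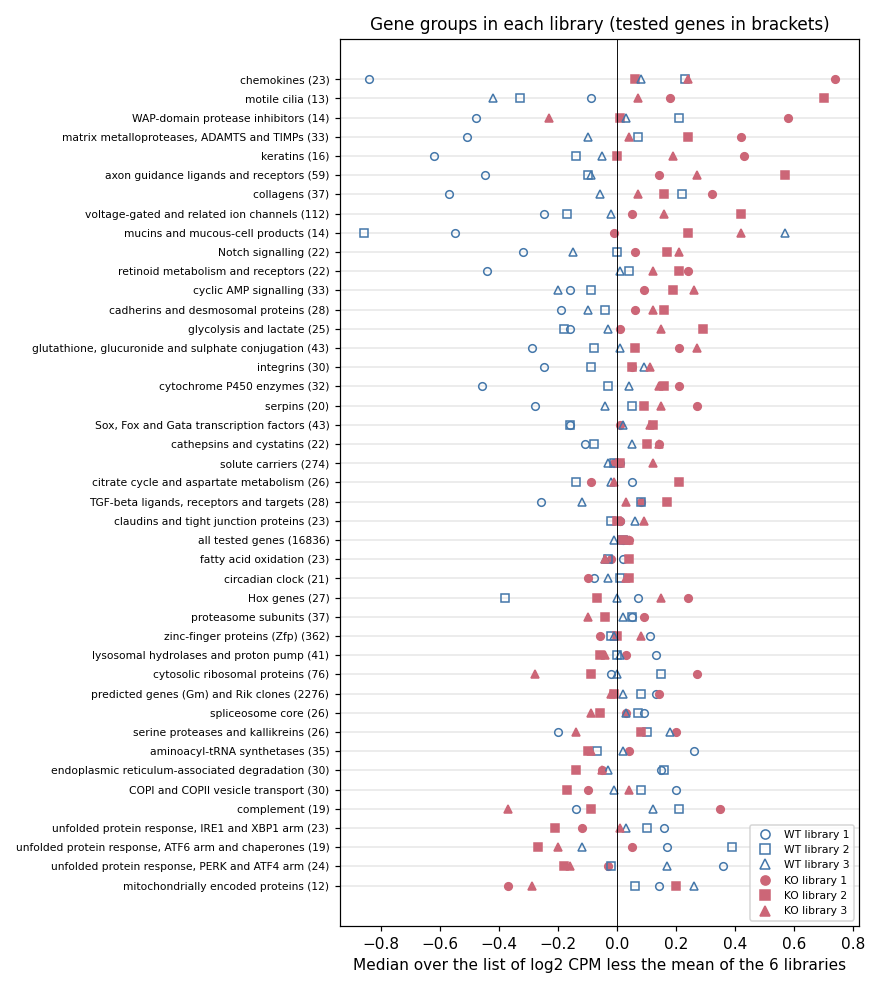
For each gene list (tested genes in brackets) points give the median over the list of log2 CPM less the mean of the 6 libraries, open for WT and filled for KO, with symbols by library. The IRE1 and PERK lists have every KO library below every WT library, the axon guidance and cyclic AMP lists every KO library above, and the row of all tested genes lies near 0.

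The lower genes by the naming rule included Slc30a2 and Mt3, which handle zinc. Slc30a2, a transporter that moves zinc into vesicles, was at 189, 130 and 120 CPM in WT and 89.2, 75.9 and 57.8 in KO, a log2 difference of -0.98 (SE 0.23). Mt3, a metallothionein, was at 106, 87.7 and 83.1 against 42.5, 37.9 and 28.2 (-1.35, SE 0.32). The groups did not overlap for either gene and neither was called, with DESeq2 adjusted p-values of 0.109 and 0.0824. The zinc importer Slc39a6, chosen after its values were seen, was higher in every KO library, at 19.0, 24.5 and 11.6 CPM in WT and 24.7, 34.2 and 28.7 in KO (0.67, SE 0.26). Over the 274 solute carriers tested, 156 were positive and 118 negative, with a median of 0.08. The acetyl-CoA transporter Slc33a1 was at 101, 80.8 and 76.1 CPM in WT and 58.0, 52.4 and 62.9 in KO, and the creatine transporter Slc6a8 at 46.5, 61.6 and 83.5 against 119, 109 and 197.

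The other lower genes by the naming rule had varied roles. C1galt1, the synthase of core 1 O-glycans, had the smallest SE of the 32 named genes, at 72.9, 63.6 and 65.2 CPM in WT and 42.9, 46.0 and 51.2 in KO (-0.52, SE 0.13). Mtm1, a phosphoinositide phosphatase, was at 16.2, 14.3 and 12.5 against 6.43, 7.39 and 7.22 (-1.03, SE 0.25). Cep85, a centrosomal protein, was at 1010, 1170 and 1530 against 813, 562 and 598 (-0.91, SE 0.23). Cnbd2, Banp, Fam199x and Naa35, a subunit of the NatC acetyltransferase, had log2 differences of -1.29 (SE 0.28), -1.14 (SE 0.27), -0.89 (SE 0.20) and -0.61 (SE 0.16). None of these 7 was called by either tool. In all, the 18 higher and 14 lower named genes kept their sign when any 1 library was left out. Their lack of overlap between WT and KO made that near certain. These named genes also kept it with the muscle covariate, where 8 of the 18 and 10 of the 14 had an unadjusted edgeR p under 0.05. Over all 16836 tested genes, 213 higher and 77 lower had such a p with that covariate. Most named genes were picked for a small p in the same libraries, so these counts say little about muscle content. KO library 2 was the highest KO library in 16 of the 18, while the lowest KO library of the 14 was library 1, 2 or 3 in 4, 6 and 4 genes.

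**Figure D5:**
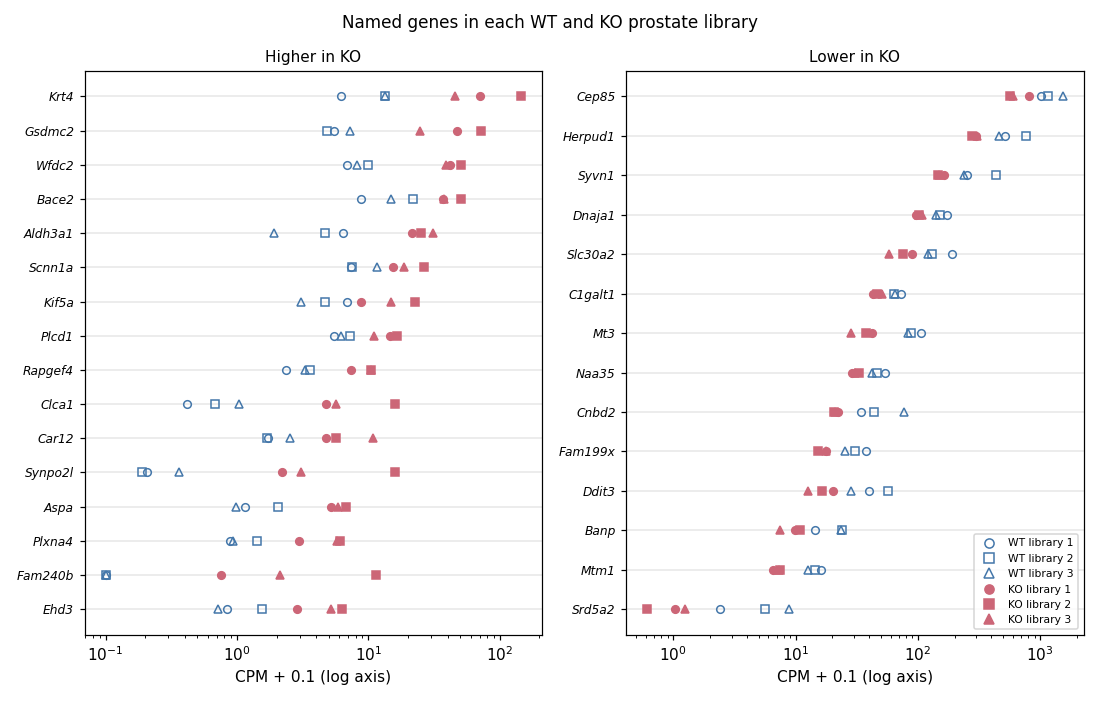
Points give CPM + 0.1 on a log axis in each WT (open) and KO (filled) library for 16 named genes that were higher in KO (left) and 14 that were lower (right). The WT and KO points of each gene do not overlap, which the naming rule required of most of them, and KO library 2 (square) is the highest point in 14 of the 16 rows on the left.

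Epithelial structure and surface lists leaned to the higher side. Of 16 keratins 10 were positive (median 0.41), and 6 had every KO library above every WT library (37.5%, beside 8.14% of all tested genes). The basal keratin Krt15 was at 84.3, 124 and 179 CPM in WT and 194, 357 and 196 in KO, Krt5 at 56.2, 85.6 and 102 against 103, 153 and 154, and the simple-epithelium keratin Krt7 at 32.9, 25.4 and 40.0 against 89.6, 122 and 76.0. The log2 difference of Krt15 was 0.95 (SE 0.35), 0.59 without KO library 2 and 0.08 with the muscle covariate. That covariate also moved Krt5 from 0.75 to 0.07 and Krt7 from 1.55 to 0.76. The urothelium markers, of which Krt7 is 1, leaned the same way: they summed to 505, 647 and 276 CPM in WT and to 660, 679 and 638 in KO. Of the 8, 6 were positive (median 1.10) and 4 had every KO library above every WT library, beside 8.14% of all tested genes. Foxa1 and Upk1b were not positive, with log2 differences of -0.04 (SE 0.63) and -0.07 (SE 0.25). None of these markers was at 0 throughout a group. Their part in the result was not tested. Krt14, the partner of Krt5 in basal cells, overlapped between groups, at 23.1, 49.2 and 68.5 against 32.9, 35.0 and 41.1 CPM. Cadherins and desmosomal proteins were positive in 21 of 28 (median 0.24): periplakin (Ppl) was at 17.3, 18.3 and 19.2 CPM in WT and 24.3, 31.9 and 26.8 in KO. The tight junction protein Cldn8 was lower, at 288, 182 and 184 against 135, 131 and 155, while its list had a median of 0.01. Luminal markers were positive in 5 of 10, with a median of 0.02.

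Matrix and immune-ligand lists had positive medians with overlapping libraries. Metalloproteases, ADAMTS and TIMPs were positive in 24 of 33 (median 0.48) and collagens in 31 of 37 (median 0.39). The protease inhibitor Timp1 was at 2.51, 5.55 and 4.77 CPM in WT and 13.8, 8.53 and 24.1 in KO (1.85, SE 0.52), whereas the epithelial protease Mmp7 was lower, at 1610, 921 and 845 against 673, 430 and 204 (-1.37, SE 0.54, and -0.68 with the muscle covariate). Chemokines were positive in 16 of 23 (median 0.74). Cx3cl1, a membrane-bound chemokine, was at 22.3, 48.7 and 28.0 against 57.0, 55.5 and 53.5, and Cxcl16 at 5.44, 11.3 and 16.6 against 27.1, 19.1 and 26.2. WT library 1 was the lowest library for the medians of all 3 lists, and the fibroblast markers summed to 450 CPM there against 708 to 1030 in the other 5 libraries.

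Guidance and signalling lists separated the groups by their library medians. Of 59 axon guidance ligands and receptors 49 were positive (median 0.40), and 18 had every KO library above every WT library (30.5%, beside 8.14% of all tested genes). Sema4c, a membrane semaphorin, was at 10.4, 10.1 and 7.78 CPM in WT and 19.6, 15.1 and 15.9 in KO (0.84, SE 0.22), and Unc5a, a netrin receptor, at 4.24, 9.41 and 1.66 against 10.5, 13.5 and 14.4. With the muscle covariate the list's median was 0.30. Cyclic AMP signalling was positive in 25 of 33 (median 0.24, and 0.13 with the muscle covariate). All KO libraries were above all WT libraries for 8 of the 33 (24.2%, beside 8.14% of all tested genes). Crem, a cyclic AMP response factor, was lower, at 18.1, 10 and 13.3 CPM against 7.74, 6.66 and 9.26. Notch signalling was positive in 18 of 22 (median 0.32), with the ligand Jag1 at 12.4, 14.1 and 12.9 CPM in WT and 16.9, 22.1 and 20.1 in KO.

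Detoxification and retinoid genes were mixed. Enzymes of glutathione, glucuronide and sulphate conjugation were positive in 27 of 43 (median 0.24), and 9 had every KO library above every WT library (20.9%, beside 8.14% of all tested genes). Gpx2, an epithelial glutathione peroxidase, was at 0.262, 1.78 and 0.726 CPM in WT and 2.53, 5.46 and 7.74 in KO (2.49, SE 0.92, and 3.43 without WT library 2). Reads counted for Ugt1a1 were 0 in WT and gave 1.15, 0.739 and 1.05 CPM in KO, and genes of its locus share exons with it. The cytochrome P450 Cyp2f2 was at 6.01, 30.2 and 21.7 against 53.8, 122 and 77.6, and its list (18 of 32 positive, median 0.21) had a median of -0.04 without KO library 2. Of the retinoid list 18 of 22 were positive (median 0.27), but the retinoic acid synthase Aldh1a2 was lower, at 49.7, 31.2 and 27.0 CPM in WT and 18.1, 10.3 and 6.28 in KO (-1.64, SE 0.44, and -0.95 with the muscle covariate). The receptor Rarg was at 29.7, 33.9 and 43.7 against 47.6, 51.2 and 47.0.

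The glycolysis and ion channel lists, which hold muscle isoforms, had their highest library medians in KO library 2. Glycolysis and lactate genes were positive in 21 of 25 (median 0.24, 0.18 without KO library 2, and -0.02 with the muscle covariate). The muscle enolase Eno3 was at 10.2, 17.5 and 51.6 CPM in WT and 42.5, 355 and 54.0 in KO, and its log2 difference of 2.51 (SE 0.97) was 0.87 without KO library 2 and 0.13 with the muscle covariate. Pkm, the pyruvate kinase of most tissues, differed less but without overlap, at 348, 405 and 373 against 450, 597 and 454. Ion channels were positive in 80 of 112 (median 0.39, 0.30 without KO library 2, and 0.09 with the covariate). The part of muscle content in these medians was not tested. Scn4b, a sodium channel subunit, was at 0.157, 0.488 and 0.156 CPM in WT and 0.769, 19.3 and 2.09 in KO, while Kcnd3, a potassium channel, was at 1.73, 3.91 and 1.24 against 5.93, 6.88 and 5.28. All 19 tested skeletal muscle markers were positive, with a median of 3.52, and only 2 had groups that did not overlap, since WT library 3 exceeded KO library 1 for the others.

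Near Srd5a2 on chromosome 17, 17 genes within 1 Mb were tested, itself included. Capn13, Ehd3, Xdh and Ltbp1 had every KO library above every WT library, and Srd5a2, Slc30a6 and Yipf4 every one below, or 4 and 3 of 17, beside 8.14% and 6.04% of all tested genes. Capn13, a calpain 616 kb away, was at 1.62, 0.755 and 1.87 CPM in WT and 5.99, 7.22 and 3.82 in KO (log2 difference 2.0, SE 0.63). Ehd3 lies 185 kb away. Xdh, xanthine dehydrogenase and the nearest of the 4 at 66.8 kb, was at 11.4, 13.5 and 11.4 against 15.7, 17.5 and 14.8 (0.40, SE 0.30).

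Beside these values, the heterozygous libraries, compared with the same WT libraries, had Srd5a2 at 3.68, 5.19 and 2.37 CPM. Wfdc2 was at 9.51, 33.2 and 25.4 CPM there and Krt4 at 17.7, 11.2 and 8.66, within or near the WT range for Krt4. Herpud1 was at 361, 321 and 338 and Ddit3 at 14.1, 13.8 and 16.2, below each WT library. C1galt1 was at 67.2, 65.7 and 63.5, and Clca1 at 0.108, 0 and 0. Of the lower named genes, Ddit3, Slc30a2, Syvn1 and Banp had heterozygous means no higher than those in KO. For Slc30a2 they were 52.9 CPM against 74.3 in KO, and for Syvn1 139 against 153. The other lower named genes had higher means in the heterozygous libraries than in KO.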

How the data were processed

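Bulk RNA-seq of mouse prostate gave 9 libraries, 3 per genotype, with 16233392 to 24017791 counts each. The authors deposited raw read counts per gene, not normalised, and FPKM values per library. Per the submitters' processing notes, the genome was GRCm38, also named mm10. The sources used here do not give the aligner, counting program or strand setting: reads of overlapping or antisense genes cannot be told apart, and nearly identical genes may share reads. Columns of per-sample values that were not used: 0. FPKM served only to set levels of different genes side by side.

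Counts were tested with edgeR 4.0.16 (R 4.3.3): filterByExpr kept 16836 of 54532 genes, TMM scaled the libraries, and all 9 entered a robust quasi-likelihood fit with genotype as the only factor. P-values were adjusted over all genes tested (Benjamini-Hochberg), with a call under 0.05. Standard errors are the absolute log2 difference divided by the square root of F. A bound for a gene at 0 in a group uses 3 counts over that group. The steps were tested on simulated counts with the same dispersion for every gene and no differences in tissue content between libraries. That check therefore says little about how the tests behave in these libraries. Alternatives were DESeq2 1.42.0, limma 3.58.1 voom with and without quality weights, the 6 libraries alone, other scalings and filters, covariates (the mean log2 CPM, with a prior count of 2, of skeletal muscle or of seminal vesicle markers, and log2 CPM of Sbp with 0.5 added), the libraries without the 3 low in Sbp, and each library left out. Lists were summarised by counts and medians, with no test, and those medians were the same with genes at 0 in a group set to their bounds. Promoter windows and their sequences are from RefSeq.

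The comparison, markers and lists were chosen with earlier results of these data known. The 32 named genes are Srd5a2, Wfdc2, Krt4 and Herpud1, genes called by DESeq2 or by the fit of 6 libraries, and a ranked set. The ranked set has 14 higher and 14 lower genes of smallest edgeR p with a proper symbol and no overlap between WT and KO. Up to 3 members per list were chosen as well and are not counted among the 32. Some results that these rules name are left out of the text. Krt5, Krt7, Krt14, Pbsn, Krt8, Slc39a6, Sbp, Ckm, Ttn and the neighbours of Srd5a2 were chosen after their values were seen. Groups come from the library names. Replicate numbers follow accession order and pair nothing.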

Additional observations from a re-analysis of the deposited data

How the results depend on the processing

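With every other scaling, filter and covariate, with limma voom in either form, and without the 3 libraries low in Sbp, 0 genes were called. DESeq2 called 14, the 6 libraries alone 1, and the fits with 1 library left out 0 to 1 (1 without Het library 1: Wfdc2, adjusted p 0.00706). Srd5a2 was at -2.68 in DESeq2 (adjusted p 0.0397), and -3.04 to -2.17 with 1 library left out. Of genes at an unadjusted p under 0.05, the higher numbered 557 in DESeq2, 1148 in voom with quality weights, 770 in the 6 libraries, 219 without the 3 libraries low in Sbp, 213 with the muscle and 617 with the seminal vesicle covariate. The lower numbered 1034 in voom with quality weights, 488 in the 6 libraries, 91 without the libraries low in Sbp, 77 with the muscle and 402 with the seminal vesicle covariate. With 1 library left out they ranged from 138 (without KO library 2) to 711 (without Het library 1) higher, and from 82 (without WT library 1) to 361 (without Het library 1) lower. Without WT library 2 they were 648 and 136. Genes with every KO library above every WT library numbered 1333 to 1433 with 1 Het library left out and 1932 to 3065 with 1 KO or WT library left out, where fewer libraries must be apart, and those below 1036 to 1197 and 1495 to 2450. Under other scalings and filters they numbered 1359 to 1582 above and 789 (at least 1 CPM in 3 libraries) to 1187 below. The fit without the libraries low in Sbp has 1 WT library, assumed to vary like the others. Among the genes followed through these settings, signs turned for Ckm (-1.11), Ttn (-0.16), Rpl17 (0.73), Rps27a (0.50) and Rpl13a (0.09) with the muscle covariate. They also turned for Rps27a (0.08) with the seminal vesicle covariate and for Tef (0.00) without the libraries low in Sbp. Krt14 turned (0.00) without WT library 3 and was -0.69 without WT library 1. Other list members turned too with the muscle covariate, among them the ER genes Edem1 (0.11), Sel1l (0.20) and Atf6 (0.01). The cause was not tested. The median over all genes stayed between -0.01 and 0.06. No paired analysis was possible because the labels give the groups no shared replicate numbers. With 3 libraries a group and a median SE of 0.37 on the log2 scale, small differences in single genes were not detectable. In the edgeR fit of 9 libraries large ones were not called either, among them Krt4 (2.99) and Srd5a2 itself (-2.67).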
